A study of Homo sapiens with 8 samples.

Results

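Nascent transcription of the C/EBP family was examined in RAS-induced senescence and after knockdown of the m6A methyltransferase subunits METTL3 and METTL14. The rows whose gene symbol was CEBPA, CEBPB, CEBPD, CEBPG or CEBPZ were taken, which gave 5 of the 27945 genes in the count table. Of these, 4 passed the filter on low counts that left 12844 genes to be tested, and CEBPA did not. Nascent RNA had been measured by fastGRO-seq, a run-on assay that sequences RNA freshly made by engaged polymerases in isolated nuclei, in IMR90 cells, which are primary human diploid fibroblasts from embryonic lung. There were 4 groups of 2 libraries. The control group was wild type by its label, with no knockdown named. The other 3 groups were senescent cells in which a fusion of the estrogen receptor and H-RAS G12V (ER:RAS) had been switched on, by 100 nM 4-hydroxytamoxifen with harvest on day 6 in the study's methods. They carried a control shRNA (shControl), an shRNA against METTL3 (shMETTL3) or an shRNA against METTL14 (shMETTL14). Each target was given as a single hairpin, and since the control label names no shRNA, senescence and the presence of a vector cannot be told apart in the comparison of shControl with control.

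C/EBP proteins are transcription factors with a basic region that contacts DNA and a leucine zipper through which they pair with themselves, with each other and with ATF-family factors. CEBPB and CEBPD are induced by inflammatory cytokines and by RAS signaling, and CEBPB is known as an activator of the interleukins and chemokines that senescent fibroblasts secrete. CEBPA drives differentiation of myeloid cells, liver and fat. CEBPG lacks a transactivation domain of its own, pairs with the other members and with ATF4, and takes part in the response to amino acid shortage. CEBPZ shares the name because it was isolated as a CCAAT-binding protein, but it has no leucine zipper, is a nucleolar factor of large ribosomal subunit assembly, and has been described as bringing METTL3 to promoters in leukemia cells. RNA-level changes therefore say nothing of the translation, phosphorylation or pairing through which these proteins are also controlled.

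The promoters of the members were compared first, since nascent RNA is read from them. Stretches from RefSeq's promoter table, whose coordinates belong to GRCh38.p14, were placed by exact sequence on GRCh37, the build that matches the coordinates of the counts. CEBPB and CEBPG were the members called higher with shMETTL14 against control, but CEBPG was not called against shControl. CEBPA was the member without signal. The stretches of these members are printed. Each is written 5′ to 3′ along the gene's own strand and ends at or before the annotated start, and the capitals mark a GC box (GGGCGG or its complement), a CCAAT box (CCAAT or its complement) or a TATA box (TATAAA). The CEBPB stretch lies at chr20:48806870-48807119 on the plus strand, the CEBPG stretch at chr19:33864365-33864574 on the plus strand, and the CEBPA stretch at chr19:33793441-33793690 on the minus strand.
CEBPB: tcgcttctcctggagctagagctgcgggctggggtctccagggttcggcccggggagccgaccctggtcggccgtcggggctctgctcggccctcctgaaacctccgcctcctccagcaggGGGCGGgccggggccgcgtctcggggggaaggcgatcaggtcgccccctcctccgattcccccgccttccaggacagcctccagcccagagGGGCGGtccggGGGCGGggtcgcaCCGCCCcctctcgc
CEBPG: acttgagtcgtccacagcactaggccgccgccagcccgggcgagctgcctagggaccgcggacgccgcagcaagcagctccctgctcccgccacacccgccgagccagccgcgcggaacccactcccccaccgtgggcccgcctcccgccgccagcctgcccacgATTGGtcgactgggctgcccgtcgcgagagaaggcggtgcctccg
CEBPA: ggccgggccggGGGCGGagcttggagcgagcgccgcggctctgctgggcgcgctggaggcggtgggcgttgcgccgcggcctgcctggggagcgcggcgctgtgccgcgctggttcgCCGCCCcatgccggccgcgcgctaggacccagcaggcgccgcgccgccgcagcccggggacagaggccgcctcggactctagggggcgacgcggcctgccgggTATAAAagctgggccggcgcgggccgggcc

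In the CEBPB stretch 4 GC boxes began at -129, -38, -27 and -14 relative to the start, and its GC content was 75.6%. CEBPB has another annotated start 247 bases further in, inside the counted gene, with a TATA box at -29, the core of a cAMP response element (TGACG) at -57 and a CCAAT box at -245. CEBPG held CCAAT boxes at -85 and -24, the latter past the end of the stretch printed, and the window of its other annotated start held a C/EBP-ATF element (TGATGNAA) at -42. CEBPA had a TATA box at -30 and GC boxes at -239 and -133, in a window of 81.2% GC. The window of CEBPZ, at 62.8% GC, held TGACG at -174. Over all 35116 windows of 250 bases in the table the median GC content was 58%, and 42.6% held a GC box, 32% a CCAAT box, 21.2% TGACG, 10.7% a TATA box and 3.14% TGATGNAA on either strand. TGACG is contained in the full cAMP response element TGACGTCA, which none of the members' windows held. A match is a description of the letters and not evidence that a factor binds. CEBPD had no entry in the promoter table.

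The total count per library was 14897360 to 20306299, but 86.2 to 92.5% of it fell on 21 rows of ribosomal RNA, which left 1513930 to 2048475 counts for all other genes. The members were therefore read at low depth, between 8 and 146 counts per library for the 4 tested genes. Counts of METTL3 were 77 and 47 in shControl cells against 16 and 19 in shMETTL3 cells, which gave a log2 change of -2.04 ± 0.33 (SE, edgeR quasi-likelihood test, adjusted p = 1.8e-05). Counts of METTL14 were 24 and 28 in shControl cells against 18 and 14 in shMETTL14 cells, which gave -0.86 ± 0.35 that missed the threshold (edgeR adjusted p = 0.076). In shControl cells METTL14 was already lower than in control (-0.76 ± 0.29, edgeR adjusted p = 0.047). For both knockdowns the study refers to a western blot of the proteins, which nascent counts do not measure. METTL14 counts were 41 and 48 in shMETTL3 cells (0.56 ± 0.29 against shControl, edgeR adjusted p = 0.18), and the value for shMETTL14 against shMETTL3 was -1.41 ± 0.33 (adjusted p = 0.001). All 10 fibroblast markers examined passed the filter, with summed levels of 68.3 to 73.3 RPKM in control, 48.6 to 52.3 in shControl, 45.3 to 54.3 in shMETTL3 and 39.4 to 41.6 in shMETTL14. Of these, 7 were called lower and 1 higher in shControl against control (median log2 fold change -1.15), 2 lower and 1 higher in shMETTL3 against shControl (-0.03) and 8 lower in shMETTL14 against shControl (-1.13). Of all tested genes, 26.6%, 23.4% and 21.2% were called in these comparisons, in the same order. In the last comparison the proteoglycan gene DCN was at -2.38 ± 0.26 (SE), the collagen gene COL3A1 at -1.60 ± 0.21 and the growth factor receptor gene PDGFRA at -1.32 ± 0.17. After METTL3 knockdown, against shControl, DCN was at -2.91 ± 0.29, COL3A1 at 0.02 ± 0.20 and PDGFRA at 0.30 ± 0.16. As a set, fibroblast markers were thus lower in shControl than in control and lower again with shMETTL14 than with shControl. Of 4 senescence markers (CDKN1A, CDKN2A, LMNB1 and CCNA2), 1 was called higher and 2 lower with shMETTL14 against shControl. Their summed level was 2.15 to 2.37 RPKM in control, 4.45 to 4.59 in shControl, 3.25 to 4.16 in shMETTL3 and 8.2 to 9.41 in shMETTL14. The part of either set of markers in the results on CEBPB and the gene lists was not tested. Of cell types in which CEBPA is high, 7 myeloid, 3 hepatocyte and 3 adipocyte markers were examined and none passed the filter. Their summed levels reached at most 0.0749, 0.00382 and 0.082 RPKM in any library. The highest counts were 7 for the myeloid marker CSF1R, 1 for the hepatocyte marker ALB and 8 for the adipocyte marker FABP4, the last in a control library, while MPO, APOA1, TTR and ADIPOQ had 0 counts throughout. Summed levels of 3 epithelial markers were 0.0101 to 0.0276 RPKM and of 3 endothelial markers 0.0013 to 0.00732 RPKM.

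Levels were compared between genes per kilobase, as RPKM, here the counts divided by the length of the counted span and by the TMM-scaled library size. These values are small because ribosomal RNA counts remain in the library size. CEBPB and CEBPD were the highest members, with means of 1.19 ± 0.37 and 1.43 ± 0.28 RPKM (SD, n = 2) in control cells, where they ranked 370 and 304 among 19475 protein-coding genes. CEBPB then ranked 273 in shControl, 257 in shMETTL3 and 144 in shMETTL14, whereas CEBPD ranked 519, 861 and 812. CEBPG and CEBPZ were several times lower, with control means of 0.180 ± 0.018 and 0.210 ± 0.008 RPKM (SD, n = 2) and ranks of 3094 and 2604.

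**Figure D1:**
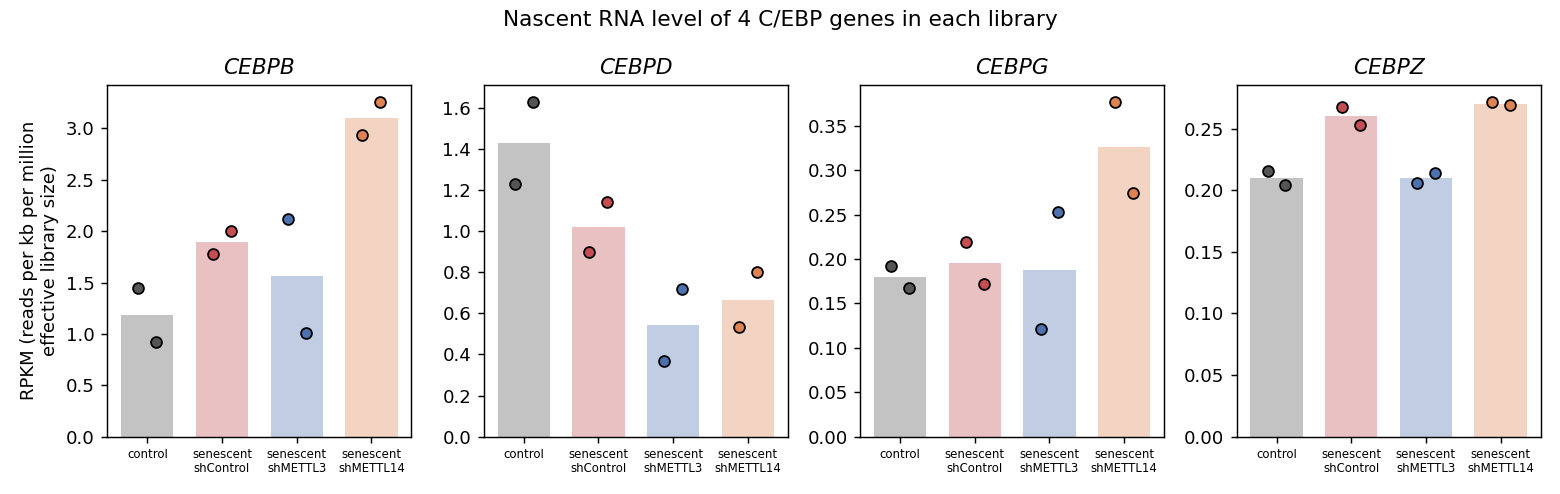
Nascent RNA level (RPKM, vertical axis from 0, a separate scale in each panel) of CEBPB, CEBPD, CEBPG and CEBPZ in the 4 groups, with points for the 2 libraries and bars for their mean. CEBPB is highest in both shMETTL14 libraries (2.94 and 3.26), CEBPD is highest in both control libraries (1.23 and 1.63), and the CEBPZ libraries all sit between 0.204 and 0.272.

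The order of the mean levels differed between the groups, and no difference in order was tested. In control cells CEBPD came before CEBPB, but their libraries overlapped. With shControl and with both knockdowns CEBPB came first and CEBPD second, with no overlap between their libraries. CEBPZ lay above CEBPG in control and shControl, their libraries overlapped in shMETTL3, and CEBPG lay above CEBPZ in shMETTL14. The last rests on 0.274 RPKM in the lower CEBPG library against 0.272 in the higher CEBPZ library. CEBPA came last in every group.

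CEBPA was not detected in 7 of 8 libraries and had a single count in the second shMETTL14 library. At these depths 0 counts allow a level of up to 0.0554 to 0.0752 RPKM, which is below the lowest CEBPD library (0.366) and the lowest CEBPG library (0.121). CEBPA is a short gene of 2630 bases, at chr19:33790840-33793470 on the minus strand (hg19). The transcript that starts beside it on the other strand, CEBPA-DT, and CEBPE, the myeloid family member, had 0 counts in all 8 libraries, with intervals and limits here covering counting error only.

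CEBPB is also short, 2107 bases at chr20:48807120-48809227 on the plus strand (hg19). Its RPKM was 1.45 and 0.922 in control cells and 1.78 and 2.00 in shControl cells. Under knockdown of METTL3 it was 2.12 and 1.01, under knockdown of METTL14 2.94 and 3.26. Both shMETTL14 libraries were above all others, the shControl pair lay above the control pair, and of the shMETTL3 pair 1 library lay above both shControl libraries and the other between the control libraries. The raw counts behind these values were 62 and 40, 57 and 68, 78 and 40, and 111 and 117. Of all tested genes, 64.3 to 72.4% had no overlap between shMETTL14 and each other group, and 66% between shControl and control. Over all genes the shMETTL3 pair differed most, with a chi-square per gene of 5.13 against 1.53 to 2.52 in the other groups. For CEBPB its spread was larger than counting error allows (78 against 40 counts, exact binomial test, two-sided, p = 9.5e-05), and so was that of the control pair (p = 0.029, same exact test).

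In senescent shControl cells CEBPB had a log2 fold change of 0.67 ± 0.28 (SE) against control, or 1.60-fold, which missed the threshold (edgeR adjusted p = 0.074). None of the 4 tested members was called in this comparison, in which 26.6% of all tested genes were called. DESeq2 also called none, and CEBPB alone had an unadjusted edgeR p under the threshold (0.022). The libraries of 3 members did not overlap between these groups, as for 66% of all tested genes. The call of CEBPB turned on the fit: its adjusted p was 0.0096 when only these 2 groups were fitted, 0.039 without control replicate 1 (log2 fold change 1.04), 0.015 without shMETTL3 replicate 1 and also without shMETTL3 replicate 2, 0.017 without both, 0.028 with no filter on low counts and 0.035 with offsets for length and GC content. With library size alone as the scale its log2 fold change was 0.18, where the median of all genes was -0.53.

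After METTL3 knockdown CEBPB had a log2 fold change of -0.29 ± 0.27 (SE) against shControl (edgeR adjusted p = 0.48). The value had no stable sign: it was -0.93 without shMETTL3 replicate 1 (adjusted p = 0.013) and 0.14 without shMETTL3 replicate 2. In this comparison 23.4% of all tested genes were called and none of the 4 tested members was, by edgeR or by DESeq2. Only CEBPD had an unadjusted p under the threshold (edgeR, 0.049).

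After METTL14 knockdown CEBPB was 1.63-fold higher than with shControl, a log2 fold change of 0.71 ± 0.25 (SE, 95% interval 0.19 to 1.22, edgeR adjusted p = 0.043). It was the 1 member called of 4 tested, where 21.2% of all genes were called. The call was at the edge of the threshold. DESeq2 gave the same size with an adjusted p of 0.23, an offset for gene length gave 0.59 (adjusted p = 0.058), and the fits without shControl replicate 1 (0.63), shControl replicate 2 (0.79), shMETTL14 replicate 1 (0.76) or shMETTL14 replicate 2 (0.63) each lost it, with adjusted p of 0.24, 0.15, 0.13 and 0.19.

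Against control the difference was larger. CEBPB rose 2.61-fold in senescent shMETTL14 cells (log2 fold change 1.38 ± 0.26, SE, edgeR adjusted p = 8.7e-05), and it was called under all 19 alternatives, between 1.085 and 1.746 on the log2 scale with adjusted p of 7.6e-09 to 0.0072. In senescent shMETTL3 cells it was 0.38 ± 0.28 above control (edgeR adjusted p = 0.29), a value that was 0.83 (adjusted p = 0.011) without shMETTL3 replicate 2 and 0.93 (adjusted p = 0.0012) with the offsets for length and GC content. Of all tested genes 40.2% were called between shMETTL14 and control, and 40.2% between shMETTL3 and control. These comparisons share the control libraries.

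The direct comparison of the knockdowns placed CEBPB 2.00-fold higher with shMETTL14 than with shMETTL3 (log2 fold change 1.00 ± 0.25, SE, edgeR adjusted p = 0.0028), as the 1 member called, where 35.2% of genes were called. CEBPB has a GC content of 67.4%, against a median of 43.5% over the tested genes, and GC-rich genes as a class were higher in the same direction. The 579 tested genes with at least 60% GC had a median log2 fold change of 0.71 in this comparison, and the 159 of these shorter than 3000 bases had 0.84, against 0.01 for all genes. In a fit with offsets for length and GC content, added after the data were seen, CEBPB was 0.15 ± 0.20 (SE, edgeR adjusted p = 0.60) between the knockdowns and 0.46 ± 0.20 (adjusted p = 0.088) for shMETTL14 against shControl. The value between the knockdowns was 0.56 (adjusted p = 0.061) with an offset for length alone, 0.57 (adjusted p = 0.065) without shMETTL3 replicate 2 and 1.63 without shMETTL3 replicate 1.

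**Figure D2:**
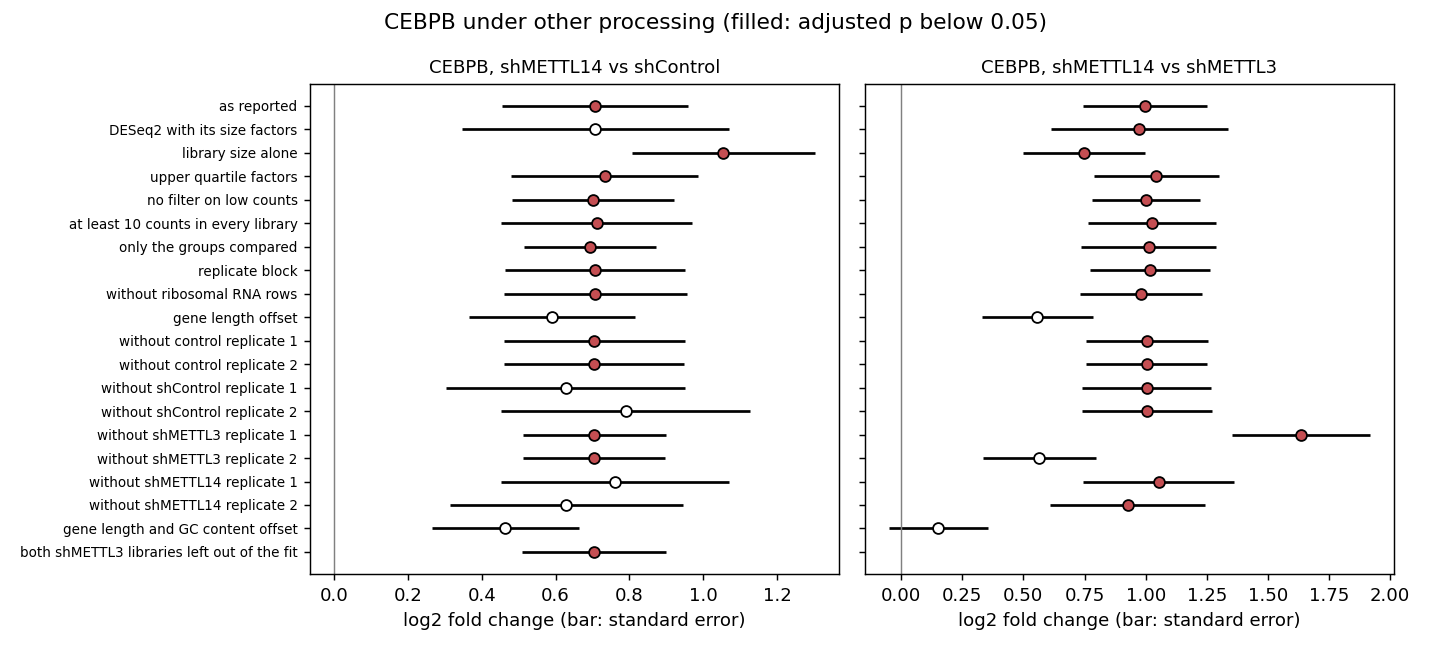
Log2 fold change of CEBPB (horizontal axis, bars are the standard error) for shMETTL14 against shControl (left) and against shMETTL3 (right) as reported and under 19 or 18 alternatives, filled where the adjusted p is below 0.05. All values lie above 0, the left panel runs from 0.46 to 1.05, and the right panel from 0.15 to 1.63.

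CEBPB cannot be read apart from its antisense transcript. CEBPB-AS1 runs on the opposite strand and covers 70.5% of the counted span of CEBPB, and the counts did not separate strands: in 299 pairs of genes with the inner gene on the opposite strand, no outer gene had fewer counts than its inner gene in any library. The antisense counts were 43 and 22 in control, 29 and 47 in shControl, 47 and 24 in shMETTL3 and 65 and 72 in shMETTL14 cells. It followed CEBPB at a ratio of 0.509 to 0.694 of its counts in every library. Its log2 fold changes were therefore close to those of CEBPB, at 0.69 for shMETTL14 against shControl (edgeR adjusted p = 0.12) and 1.00 against shMETTL3 (adjusted p = 0.016).

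CEBPD had its highest mean level in control cells, the group with the lowest mean of CEBPB. This member is the shortest, at 1250 bases, and lies at chr8:48649476-48650726 on the minus strand (hg19). Its RPKM was 1.23 and 1.63 in control, 0.897 and 1.14 in shControl, 0.366 and 0.720 in shMETTL3, and 0.535 and 0.799 in shMETTL14 cells. The control pair was above all senescent libraries, and the knockdown pairs overlapped with each other but not with shControl. Of all tested genes, 66 to 72.4% had no overlap between control and a senescent group. Between shControl and the knockdowns it was 58.4% for shMETTL3 and 64.3% for shMETTL14. The counts were low, from 8 to 42 per library.

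Against control CEBPD fell in both knockdown groups. Its log2 fold change was -1.37 ± 0.41 (SE, edgeR adjusted p = 0.0068) in shMETTL3 cells and -1.10 ± 0.40 (adjusted p = 0.025) in shMETTL14 cells. In shControl cells it was -0.48 ± 0.37 (edgeR adjusted p = 0.37). Against shControl it was -0.89 ± 0.44 with shMETTL3 (adjusted p = 0.14) and -0.62 ± 0.43 with shMETTL14 (adjusted p = 0.33), and neither was called. The direct comparison of the knockdowns gave 0.27 ± 0.46, with a 95% interval of -0.68 to 1.22. DESeq2 called neither difference from control (adjusted p = 0.094 and 0.19). Both were lost without control replicate 2 (-1.16 and -0.87, edgeR adjusted p = 0.084 and 0.20), the second also without shMETTL14 replicate 1 (-0.82, adjusted p = 0.24), and the first with the offsets for length and GC content (-0.92, adjusted p = 0.083). CEBPD has a GC content of 65.9%. The 159 tested genes shorter than 3000 bases with at least 60% GC had a median of -0.375 for shMETTL3 against control and -0.625 against shControl. With shMETTL14 these medians were 0.371 and 0.22. The part of this class in the values of CEBPD was not tested. The neighbour of CEBPD, SPIDR, a DNA repair gene 913 bases away on the opposite strand, was lower in shControl than in control (-0.89 ± 0.13, edgeR adjusted p = 8.9e-06). SPIDR was also lower than control with shMETTL3 (-1.42 ± 0.14, adjusted p = 2.8e-09) and shMETTL14 (-1.18 ± 0.14, adjusted p = 6.5e-08).

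**Figure D3:**
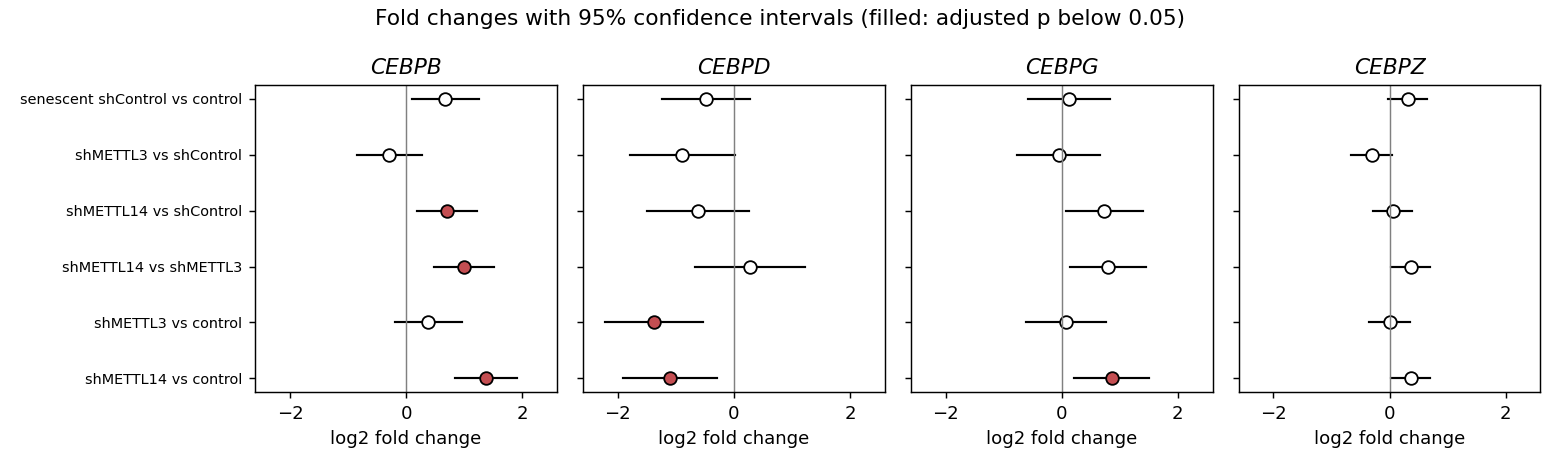
Log2 fold changes (horizontal axis) of CEBPB, CEBPD, CEBPG and CEBPZ in 6 comparisons, with bars for the 95% confidence interval and filled points for an edgeR adjusted p below 0.05. CEBPB is filled in 3 comparisons, all with shMETTL14 as the first group, CEBPD in both knockdowns against control, CEBPG in shMETTL14 against control, and CEBPZ in none.

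CEBPG, which spans 9017 bases at chr19:33864575-33873592 on the plus strand (hg19), had means of 0.180 to 0.196 RPKM in 3 groups and 0.326 RPKM with shMETTL14. Its RPKM was 0.192 and 0.167 in control, 0.219 and 0.172 in shControl, 0.121 and 0.253 in shMETTL3, and 0.377 and 0.274 in shMETTL14 cells. Both shMETTL14 libraries were above all others, and the shMETTL3 pair, which differed most over all genes, again differed beyond counting error (19 against 43 counts, exact binomial test, two-sided, p = 0.0072), here with the second library higher where CEBPB had the first higher. The shMETTL14 pair did not overlap with each other group in 64.3 to 72.4% of all tested genes. CEBPG was 1.82-fold higher in shMETTL14 cells than in control (log2 fold change 0.86 ± 0.31, SE, edgeR adjusted p = 0.029). Against shControl it was 0.74 ± 0.33 (edgeR adjusted p = 0.11) and against shMETTL3 0.79 ± 0.32 (adjusted p = 0.052). The call against control was lost with DESeq2 (adjusted p = 0.18) and without control replicate 1 (0.96, adjusted p = 0.070), control replicate 2 (0.77, adjusted p = 0.15) or shMETTL14 replicate 1 (0.62, adjusted p = 0.28). It was also lost with library size alone (0.72, adjusted p = 0.059), the offset for length (0.72, adjusted p = 0.072) and the offsets for length and GC content (0.70, adjusted p = 0.063). The values against shControl and against shMETTL3 were each past the threshold under 5 alternatives.

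The log2 fold change of CEBPG was 0.12 ± 0.34 in shControl against control (edgeR adjusted p = 0.84) and -0.05 ± 0.35 in shMETTL3 against shControl (adjusted p = 0.93). The 95% intervals of these values were -0.58 to 0.83 and -0.77 to 0.66, so neither shows an unchanged level. The nearest gene, PEPD, a peptidase gene, ends 4263 bases from CEBPG on the opposite strand. PEPD fell in shControl cells against control (-0.92 ± 0.21, edgeR adjusted p = 0.0014), where CEBPG was at 0.12. It rose with shMETTL14 against shControl (0.83 ± 0.21, adjusted p = 0.0059), where CEBPG was at 0.74 without a call. No difference between these genes was tested.

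CEBPZ had the narrowest range of levels of the 4 tested members. It spans 29965 bases at chr2:37428775-37458740 on the minus strand (hg19), and its levels were 0.216 and 0.204 RPKM in control, 0.268 and 0.253 in shControl, 0.206 and 0.214 in shMETTL3, and 0.272 and 0.269 in shMETTL14 cells. The shControl and shMETTL14 pairs lay above the control and shMETTL3 pairs with no overlap, but no comparison passed the threshold as fitted, while shMETTL14 against control did under 6 alternatives (adjusted p of 0.038 to 0.05). In the comparisons between these pairs, 58.4 to 72.4% of all tested genes had no overlap. The log2 fold change of CEBPZ was 0.31 ± 0.17 (SE, edgeR adjusted p = 0.18) for shControl against control and -0.31 ± 0.17 (adjusted p = 0.19) for shMETTL3 against shControl. It was 0.05 ± 0.17 (adjusted p = 0.86) for shMETTL14 against shControl and 0.36 ± 0.17 (adjusted p = 0.091) between the knockdowns. With library size alone the first was -0.19 and the second 0.31, but the medians of all genes were then -0.53 and 0.58, so that CEBPZ lay above the median gene in the first comparison and below it in the second under either scaling.

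Around CEBPZ the counted genes overlap. CEBPZOS, a mitochondrial protein gene on the opposite strand, covers 48.6% of the CEBPZ span and had 0.639 to 0.825 of its counts, with no call in any of the 6 comparisons. NDUFAF7, an assembly factor of respiratory complex I, starts 34 bases from the start of CEBPZ and is transcribed away from it. NDUFAF7 counts were 89 and 121 in control, 252 and 228 in shControl, 193 and 245 in shMETTL3 and 128 and 135 in shMETTL14 cells. It rose 2.99-fold in shControl cells (log2 fold change 1.58 ± 0.17, SE, edgeR adjusted p = 4e-08) and fell with shMETTL14 against shControl (-1.03 ± 0.17, adjusted p = 4.2e-05), so that the 2 genes that start beside each other had different values in both comparisons, a difference that was not itself tested.

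The make-up of the leucine zipper members was then described per library, since they pair with each other and shares do not depend on library scaling. Reads of CEBPB-AS1, which covers 70.5% of the CEBPB span, were not separated from those of CEBPB in these shares. CEBPB made up 50.6 and 33.9% of the summed RPKM of CEBPA, CEBPB, CEBPD and CEBPG in control, 61.5 and 60.4% in shControl, 81.3 and 50.8% in shMETTL3 and 76.3 and 74.9% in shMETTL14 cells. CEBPD made up 42.7 and 60%, 30.9 and 34.4%, 14.1 and 36.4%, and 13.9 and 18.3% in the same order. The share of CEBPB was higher in every shControl and shMETTL14 library than in either control library, and higher in shMETTL14 than in shControl, while the shMETTL3 pair spanned these senescent groups. The shares are given as a description, and with 2 libraries a group an exact permutation test of them cannot go below p = 0.33. The ratio of CEBPB to CEBPG ranged from 3.98 to 17.6, both extremes from shMETTL3 libraries.

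**Figure D4:**
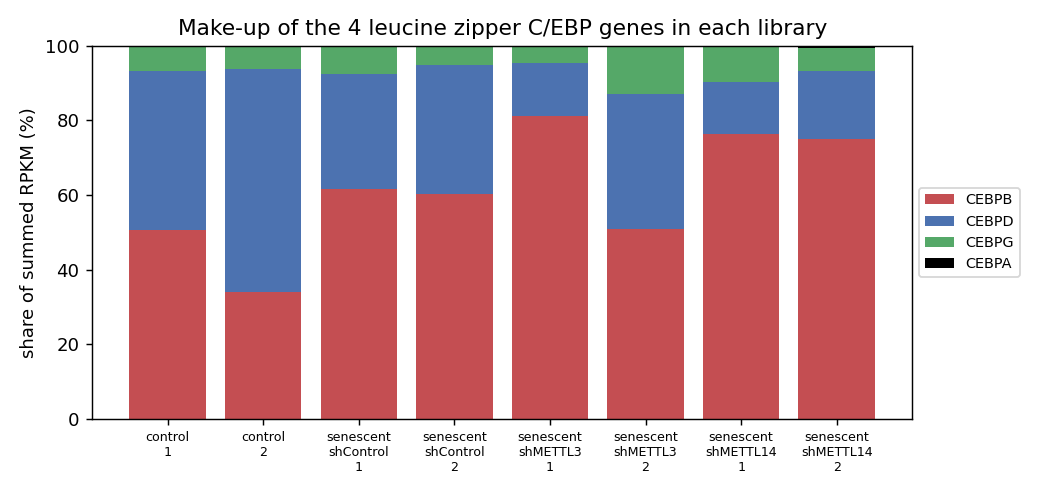
Share (%, vertical axis) of CEBPB, CEBPD, CEBPG and CEBPA in their summed RPKM in each of the 8 libraries. The CEBPB share is 33.9 and 50.6% in control and 74.9 and 76.3% with shMETTL14, and the shMETTL3 libraries differ the most, at 50.8 and 81.3%.

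Genes known to act with the C/EBP factors were read as lists. Of all tested genes, 26.6% were called in shControl against control, 23.4% in shMETTL3 against shControl and 21.2% in shMETTL14 against shControl, and a list's count near these shares is no result about the list. With library size alone as the scale the medians of all genes in these comparisons were -0.53, 0.58 and 0.35, and many of the counts moved with them, as given after the lists. List counts between the knockdowns, and of each knockdown against control, were not refitted under alternatives. Between the knockdowns 37.1% of the 579 genes with at least 60% GC were called higher with shMETTL14 and 2.59% lower. The signals that induce CEBPB and CEBPD, interleukins, their receptors and NF-kB and STAT factors, had 17 of 21 genes tested. In shControl cells 10 were higher than in control and 2 lower, with a median log2 fold change of 0.68 against -0.03 for all genes. IL1B went from 2 and 3 counts in control to 2161 and 2189, a ratio of 1140 with a 95% counting interval of 486 to 3500. IL1A rose by 6.27 ± 0.53 and IL6 by 4.36 ± 0.35 on the log2 scale. HRAS is on this list and was called higher, with 388 and 386 counts in control and 511 and 527 in shControl cells, and reads of the gene and of the RAS transgene were not separated here. The 10 higher were 6 when 10 counts were required in every library, and the 2 lower were 1 with DESeq2, without control replicate 1 and without shControl replicate 1.

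METTL3 knockdown lowered 10 of these 17 genes and raised 3 against shControl (median -0.70, all genes -0.03), among them IL1B (-3.41 ± 0.15, SE), IL6 (-2.37 ± 0.23) and SOCS3 (-1.97 ± 0.24), the feedback inhibitor of STAT3 signaling. METTL14 knockdown lowered 5 and raised 3 (median 0.16, all genes 0.00). IL1B (-2.58 ± 0.15) and the oncostatin M receptor OSMR (-1.08 ± 0.13) were lower and NFKB1, a subunit of NF-kB, was higher (1.60 ± 0.14). The 5 lowered were 3 without shControl replicate 1 and 2 when 10 counts were required in every library, and the 3 raised were 1 with DESeq2, without shControl replicate 2 and without shMETTL14 replicate 1. These 8 of 17 compare with 21.2% of all genes. Against shMETTL3, 9 of the 17 were higher and 3 lower with shMETTL14, where 35.2% of all genes were called. NFKB1 counts were 223 and 198 in shControl, 409 and 506 in shMETTL3 and 763 and 670 in shMETTL14 cells.

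The acute-phase and secretome genes known as C/EBP targets had 14 of 22 genes tested, of which IL6 and IL1B are shared with the list of signals. In shControl cells 10 were higher and 1 was lower than in control, and the median log2 fold change was 4.71, or 3.69 once CSF3 and G0S2, which had no count in control, were set to their lower bounds. CXCL8, a neutrophil chemokine, rose from 38 and 41 to 4396 and 4004 counts. CSF3 encodes the granulocyte growth factor G-CSF. Its counts were 0 in both control libraries but 289 and 254 in shControl cells, which is at least 118-fold higher when 3 counts are taken as the floor of each control library. METTL3 knockdown lowered 12 of the 14 and raised 1 (median -1.60), with CSF3 at -3.57 ± 0.27 (SE), IL1B at -3.41 ± 0.15 and the chemokine CXCL1 at -3.14 ± 0.17. METTL14 knockdown lowered 7 and raised 2 (median -0.44), with the prostaglandin synthase PTGS2 at -3.07 ± 0.15 and CXCL1 at -2.94 ± 0.16. The shares of all tested genes called were 26.6% in shControl against control, 23.4% after METTL3 knockdown and 21.2% after METTL14 knockdown. CSF3 kept 374 and 296 counts under METTL14 knockdown (log2 change 0.14 ± 0.17, SE, edgeR adjusted p = 0.62). Against shMETTL3, 10 of the 14 were higher and 2 lower with shMETTL14 (median 1.13, 35.2% of all genes called), and against control 10 were higher and 2 lower (40.2% of all genes called). Requiring 10 counts in every library, which removes genes near 0 in control, left 4 higher in shControl, 6 lowered by METTL3 knockdown and 4 lowered by METTL14 knockdown. The 2 raised by METTL14 knockdown were 1 with DESeq2, without shControl replicate 2 and without shMETTL14 replicate 1, 4 without shMETTL3 replicate 1 or replicate 2, and 0 when 10 counts were required. The 1 lower in shControl was lost with DESeq2 and without control replicate 1, control replicate 2, shControl replicate 1, shControl replicate 2 or shMETTL14 replicate 1. The 1 raised by METTL3 knockdown was lost with DESeq2 and without shControl replicate 2 or shMETTL3 replicate 2.

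The targets of ATF4 and CEBPG in the amino acid response had all 20 genes tested. In shControl cells 6 were higher and 4 lower than in control (median 0.10), where 26.6% of all genes were called. Asparagine synthetase ASNS (1.07 ± 0.28, SE) and CHAC1, which degrades glutathione (1.05 ± 0.36), were higher and PHGDH, the first enzyme of serine synthesis, was lower (-1.21 ± 0.26). METTL3 knockdown lowered 5 and raised 2 (median -0.35), with the serine and glycine enzyme SHMT2 at -1.24 ± 0.24, DDIT4 at -0.89 ± 0.29 and the cystine transporter SLC7A11 at 1.06 ± 0.18. METTL14 knockdown raised 9 and lowered 1 (median 0.46), where 21.2% of all genes were called.

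The leucine transporter SLC7A5 went from 57 and 56 counts in shControl cells to 362 and 281 under METTL14 knockdown (log2 fold change 2.34 ± 0.20, SE). The stress sensor SESN2 was higher by 1.82 ± 0.21 and the pseudokinase TRIB3 by 1.53 ± 0.24. Against shMETTL3, 12 of the 20 genes were higher and 1 was lower with shMETTL14, where 35.2% of all genes were called. ATF4 itself was 0.49 ± 0.21 above shControl (edgeR adjusted p = 0.10). The number of genes called higher in shMETTL14 against shControl, 9 in the edgeR fit, was 5 with DESeq2, 4 without shMETTL14 replicate 1 and 10 with the offsets for length and GC content. The other counts of this list also moved: the 6 genes higher in shControl than in control were 1 with DESeq2, 1 without control replicate 1, 2 without shControl replicate 1 and 3 without shControl replicate 2, and the 5 lower after METTL3 knockdown were 1 with DESeq2, 1 without shControl replicate 1, 2 without shControl replicate 2, 2 without shMETTL3 replicate 2, 3 without shMETTL14 replicate 1 or replicate 2, 1 with the offset for length, 3 with the offsets for length and GC content and 3 with only the 2 groups fitted. The 4 lower in shControl were 2 without shControl replicate 1. The 2 raised by METTL3 knockdown were 1 with DESeq2 and without shControl replicate 1, shControl replicate 2 or shMETTL3 replicate 1, and the 1 lowered by METTL14 knockdown was lost with DESeq2 and without shControl replicate 1, shControl replicate 2 or shMETTL14 replicate 1.

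**Figure D5:**
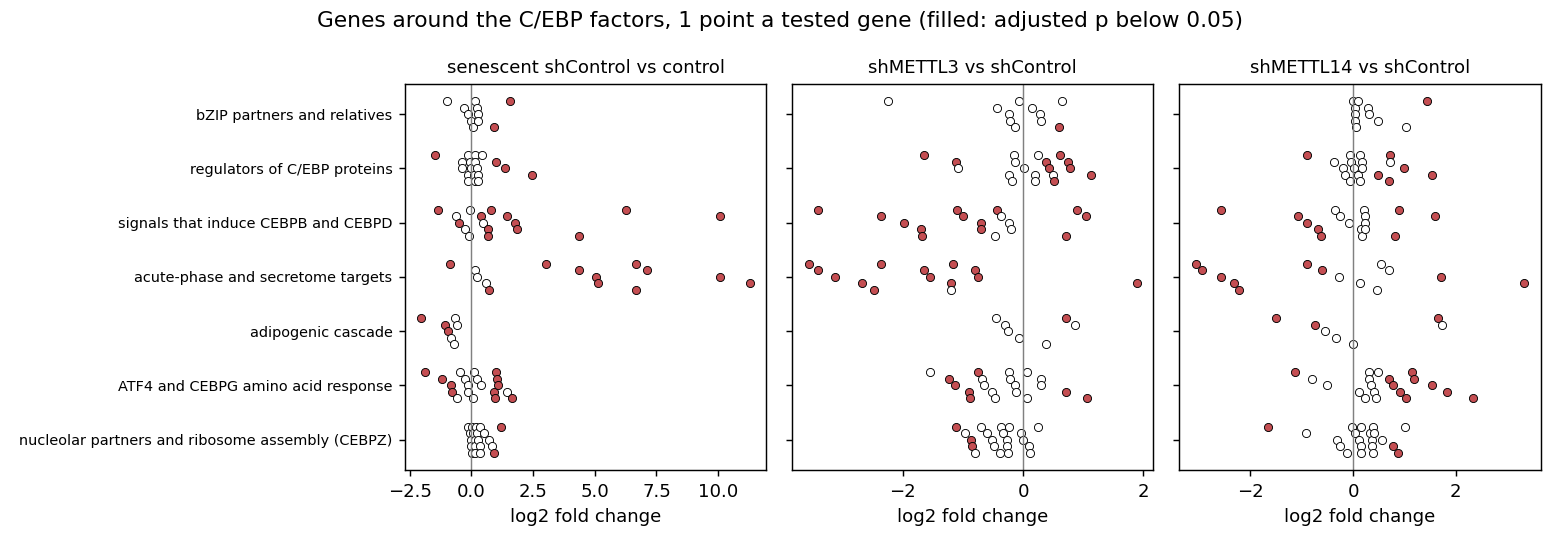
Log2 fold changes (horizontal axis, a separate scale in each panel) of the tested genes of 7 lists in 3 comparisons, 1 point a gene, filled for an edgeR adjusted p below 0.05, with the vertical spread within a list carrying no meaning. The secretome list lies far to the right in shControl against control (10 higher of 14) and to the left after METTL3 knockdown (12 lower), and the amino acid list has 9 filled points on the right after METTL14 knockdown.

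The bZIP factors that pair with C/EBP proteins and the enzymes that act on them were read next. Of 11 tested bZIP partners 2 were called in shControl against control, both higher (median 0.15, 26.6% of all genes called), and 1 with DESeq2 and without control replicate 2, shControl replicate 1 or shControl replicate 2. ATF3, a stress-induced factor, was higher by 1.59 ± 0.35 (SE) and the C/EBP antagonist DDIT3 by 0.90 ± 0.30. ATF3 rose again with shMETTL14 against shControl (1.44 ± 0.26), and was the only bZIP partner called there, while ATF2, a cAMP response element factor, was the only bZIP partner called after METTL3 knockdown (0.59 ± 0.16). The count of 1 higher after METTL3 knockdown was 0 without shControl replicate 2 and with the offsets for length and GC content. In place of 0, the number called lower was 2 with these offsets, 1 with upper quartile factors and 1 without shMETTL3 replicate 1. The count of 1 after METTL14 knockdown was 2 without shMETTL3 replicate 1 or replicate 2. Of 19 tested regulators of C/EBP proteins, 3 were higher and 1 was lower in shControl cells, where 26.6% of all genes were called, and 5 were higher with only these 2 groups fitted. Against control 12 were higher and 3 lower with shMETTL3 and 10 higher and 1 lower with shMETTL14, where 40.2% of all genes were called in each, and these comparisons share the control libraries. Against shMETTL3, 5 were higher and 4 lower with shMETTL14, where 35.2% of all genes were called. TRIB1, which leads CEBPA to degradation, had 38 and 40 counts in control and 170 and 163 with shControl (2.48 ± 0.22). Of the RSK kinases that phosphorylate CEBPB, RPS6KA3 rose (1.38 ± 0.14) and RPS6KA2 fell (-1.47 ± 0.17).

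RPS6KA2 was lower still after knockdown of METTL3 (-1.65 ± 0.22, SE) and of METTL14 (-0.90 ± 0.20), against shControl. METTL3 knockdown raised 7 regulators and lowered 2 of the 19, where 23.4% of all genes were called, with CDK2 at 1.13 ± 0.36 and the ERK kinase MAPK3 at -1.11 ± 0.37. METTL14 knockdown raised 5 and lowered 1, where 21.2% of all genes were called, with TRIB3, already named, and the kinase GSK3A at 0.98 ± 0.27. The 7 were 3 with DESeq2, 2 without shControl replicate 1, 3 without shControl replicate 2, 2 without shMETTL3 replicate 2 and 4 with the offsets for length and GC content, and the 2 lowered were 1 in each of these fits and with the offset for length. The 5 were 2 with DESeq2, 1 without shControl replicate 1, 3 without shControl replicate 2, 2 without shMETTL14 replicate 1 and 3 without shMETTL14 replicate 2, and the 1 lowered was lost without shControl replicate 2.

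The adipogenic cascade, in which CEBPB and CEBPD act upstream of PPARG and CEBPA, had 7 of 16 genes tested. PPARG fell from 477 and 501 counts in control to 71 and 114 with shControl (log2 fold change -2.02 ± 0.18, SE), and its partner RXRA (-1.05 ± 0.23) and EBF1 (-0.93 ± 0.19) were also lower, 3 of the 7 in all (median -0.81, 26.6% of all genes called). After METTL3 knockdown EBF1 was the 1 gene called (0.72 ± 0.19), and the count was 0 without shControl replicate 1 or shMETTL3 replicate 2 and with the offset for length or for length and GC content. Without shMETTL3 replicate 1 a gene of this list was called lower. After METTL14 knockdown KLF5 was higher (1.65 ± 0.34), and the insulin receptor INSR (-1.50 ± 0.50) and EBF1 (-0.75 ± 0.22) were lower. The 2 lower were 0 with DESeq2 and without shControl replicate 2 or shMETTL14 replicate 1, and 1 without shControl replicate 1.

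The nucleolar partners of CEBPZ had 21 of 22 genes tested. In shControl cells RRP12 (1.22 ± 0.24, SE) and NOC2L (0.92 ± 0.21) were higher (median 0.19), and the count was 4 without shMETTL3 replicate 1 or replicate 2. METTL3 knockdown lowered 3 (median -0.37), nucleolin NCL (-1.12 ± 0.14), fibrillarin FBL (-0.87 ± 0.28) and EBNA1BP2 (-0.85 ± 0.29). The 3 were 1 with DESeq2, with the offset for length or for length and GC content, and without shControl replicate 1 or replicate 2. METTL14 knockdown lowered NCL (-1.65 ± 0.14) and raised RPF2 (0.88 ± 0.23) and PES1 (0.77 ± 0.23) (median 0.16). The 2 raised were 0 with DESeq2 and without shControl replicate 2 or shMETTL14 replicate 1, and 5 without shMETTL3 replicate 1 or replicate 2, where the lowered were 2. Against shMETTL3, 9 of the 21 were higher and 1 lower with shMETTL14 (median 0.58), where 35.2% of all genes were called. Against control 9 were higher and 2 lower with shMETTL14 and 1 higher and 4 lower with shMETTL3, where 40.2% of all genes were called in each. NCL counts were 444 and 448 in shControl, 214 and 264 in shMETTL3 and 160 and 157 in shMETTL14 cells.

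With library size alone as the scale, the counts of these lists that moved by over 1.5 times were the following. In shControl against control, the signals had 6 higher and 6 lower, the regulators had 6 lower, the adipogenic genes 6 lower, the amino acid list 1 higher and 8 lower, the bZIP partners 1 higher and 3 lower, and the nucleolar partners 1 higher. After METTL3 knockdown the bZIP partners had 6 higher, the regulators 12 higher and 1 lower, the signals 5 lower, the adipogenic genes 3 higher, the amino acid list 5 higher and 1 lower, and the nucleolar partners 2 higher and 1 lower. After METTL14 knockdown the bZIP partners had 2 higher, the regulators 11 higher and 0 lower, the signals 7 higher and 2 lower, the secretome list 6 higher, the adipogenic genes 2 higher and 1 lower, the amino acid list 0 lower, and the nucleolar partners 9 higher.

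The genes whose log2 levels followed each member most closely over the 8 libraries were listed as a description, since the libraries fall into 4 groups and share their depth. For CEBPB these were RPLP2, a ribosomal protein gene (Pearson r = 0.98), CLPTM1 (0.974) and HADHB (0.956). For CEBPD they were CLDN11 (0.936), MYO9A (0.935) and IMMP2L (0.92), for CEBPG GNB4 (0.942), ARPP19 (0.94) and CTNNBL1 (0.921), and for CEBPZ LIF (0.973), NMD3 (0.973) and SMG1 (0.971). When ranked by Spearman's rho, 2 of the 3 genes stayed for CEBPB and for CEBPG, 1 for CEBPD and 0 for CEBPZ.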

How the data were processed

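fastGRO-seq was performed on 2 libraries in each of 4 groups. The authors aligned reads to hg19 (STAR in the submitters' processing notes) and counted reads per gene with HOMER, and the deposited values are raw counts per gene over the whole gene span, with gene length. The header of the counts requests the minus strand, although the counts behaved as if both strands were counted. The counts were tested with edgeR 4.0.16 in R 4.3.3 (quasi-likelihood test, TMM factors, filterByExpr with a minimum count of 10, all 8 libraries in 1 fit, Benjamini-Hochberg adjustment over 12844 genes, threshold 0.05). DESeq2 1.42.0, other scalings and filters, offsets and left-out libraries were alternatives. The standard error is that of the fitted log2 fold change. RPKM used the counted length and TMM-scaled library size. GC content and promoters were read from GRCh37, in which 27827 of 27945 counted spans lie on a chromosome of the same name.

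The members and gene lists were chosen with earlier results of these data known. Named list genes were the 3 with the largest absolute log2 fold change among those called with a mean of at least 20 counts, in each of 3 comparisons. Other genes named are CEBPE, the cell type and senescence markers from fixed lists, rows within 5000 bases of a member and the shRNA targets. The 3 genes most correlated with each member, among those with a mean of at least 100 counts, are also named. SLC7A5 and others fall under this rule, whereas HRAS, ATF4 and G0S2, and the markers picked out as highest or at 0, were named after their values were seen. The study describes its fastGRO-seq experiments on senescent and proliferating cells as biologically independent, and the labels add nothing on cultures, so p-values measure the spread between these libraries. Replicate numbers did not pair the libraries. The study added Drosophila nuclei as a spike-in and scaled its coverage tracks by it, but the spike-in was not used here, so changes are relative to the other genes. The edgeR and DESeq2 code was tested on simulated counts.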

Additional observations from a re-analysis of the deposited data

Results flagged for a closer look

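CEBPB differed between the 2 knockdowns by a direct test: its log2 fold change for shMETTL14 minus shMETTL3 was 0.998 (edgeR adjusted p = 0.0028), with RPKM of 2.94 and 3.26 against 2.12 and 1.01, higher in 2 of 2 libraries than in either of the others (66.3% of all tested genes had no overlap). The value was 0.152 with offsets for gene length and GC content, 0.557 with an offset for length and 0.565 without shMETTL3 replicate 2, and none of these passed the threshold.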

How the results depend on the processing

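Of 438 refitted log2 fold changes of the members, 361 kept their direction and their side of the threshold, and the cause of the other differences was not tested. With no filter on low counts the fit gained the call for CEBPB (0.7) in shControl against control and CEBPG (0.794) in shMETTL14 against shMETTL3. With only the 2 groups compared the fit gained the call for CEBPB (0.717) in shControl against control, CEBPG (0.726) in shMETTL14 against shControl and CEBPZ (0.363) in shMETTL14 against control. With offsets for gene length and GC content the fit lost the call for CEBPB (0.464) in shMETTL14 against shControl, CEBPB (0.152) in shMETTL14 against shMETTL3, CEBPD (-0.923) in shMETTL3 against control and CEBPG (0.701) in shMETTL14 against control, and gained the call for CEBPB (0.621) in shControl against control, CEBPB (0.933) in shMETTL3 against control, CEBPZ (0.472) in shMETTL14 against shMETTL3 and CEBPZ (0.388) in shMETTL14 against control, and turned the sign of the uncalled value for CEBPB (0.312) and CEBPG (0.185) in shMETTL3 against shControl, CEBPD (-0.526) in shMETTL14 against shMETTL3 and CEBPZ (-0.084) in shMETTL3 against control. With both shMETTL3 libraries left out the fit gained the call for CEBPB (0.682) in shControl against control, CEBPG (0.737) in shMETTL14 against shControl and CEBPZ (0.366) in shMETTL14 against control. With library size alone the fit lost the call for CEBPG (0.722) in shMETTL14 against control, and gained the call for CEBPD (-0.973) in shControl against control and CEBPG (1.096) in shMETTL14 against shControl, and turned the sign of the uncalled value for CEBPB (0.308), CEBPG (0.574) and CEBPZ (0.307) in shMETTL3 against shControl and CEBPG (-0.374) and CEBPZ (-0.187) in shControl against control. With an offset for gene length the fit lost the call for CEBPB (0.591) in shMETTL14 against shControl, CEBPB (0.557) in shMETTL14 against shMETTL3 and CEBPG (0.721) in shMETTL14 against control, and gained the call for CEBPZ (0.399) in shMETTL14 against control, and turned the sign of the uncalled value for CEBPB (0.034) and CEBPG (0.202) in shMETTL3 against shControl and CEBPD (-0.12) in shMETTL14 against shMETTL3. With DESeq2 the fit lost the call for CEBPB (0.707) in shMETTL14 against shControl, CEBPD (-1.35) in shMETTL3 against control and CEBPD (-1.091) and CEBPG (0.872) in shMETTL14 against control. With upper quartile factors the fit gained the call for CEBPG (0.839) in shMETTL14 against shMETTL3, and turned the sign of the uncalled value for CEBPG (-0.006) and CEBPZ (-0.074) in shMETTL3 against control. With at least 10 counts required in every library the fit gained the call for CEBPG (0.82) in shMETTL14 against shMETTL3, and turned the sign of the uncalled value for CEBPZ (-0.062) in shMETTL3 against control. With library size alone the median of all genes was -0.53 in shControl against control, 0.58 in shMETTL3 against shControl and 0.351 in shMETTL14 against shControl. As reported these medians were -0.034, -0.034 and 0. Members called higher in shControl against control (0 as reported) numbered 1 with no filter on low counts, only the 2 groups compared, offsets for gene length and GC content and both shMETTL3 libraries left out. Members called lower in shControl against control (0 as reported) numbered 1 with library size alone. Members called higher in shMETTL14 against shControl (1 as reported) numbered 0 with DESeq2, an offset for gene length, a threshold of 0.01 and offsets for gene length and GC content and 2 with library size alone, only the 2 groups compared and both shMETTL3 libraries left out. Members called higher in shMETTL14 against shMETTL3 (1 as reported) numbered 2 with upper quartile factors, no filter on low counts and at least 10 counts required in every library and 0 with an offset for gene length. Members called higher in shMETTL3 against control (0 as reported) numbered 1 with offsets for gene length and GC content. Members called lower in shMETTL3 against control (1 as reported) numbered 0 with DESeq2, at least 10 counts required in every library and offsets for gene length and GC content. Members called higher in shMETTL14 against control (2 as reported) numbered 1 with DESeq2, library size alone and a threshold of 0.01. Members called lower in shMETTL14 against control (1 as reported) numbered 0 with DESeq2, at least 10 counts required in every library and a threshold of 0.01. With each library left out in turn, the log2 fold change of CEBPB ran from 0.388 to 1.041 in shControl against control, -0.929 to 0.139 in shMETTL3 against shControl, 0.627 to 0.79 in shMETTL14 against shControl, 0.565 to 1.634 in shMETTL14 against shMETTL3 and -0.241 to 0.829 in shMETTL3 against control. With each library left out in turn, the log2 fold change of CEBPD ran from -0.102 to 0.866 in shMETTL14 against shMETTL3, -1.955 to -0.987 in shMETTL3 against control and -1.398 to -0.819 in shMETTL14 against control. With each library left out in turn, the log2 fold change of CEBPG ran from -0.049 to 0.303 in shControl against control, -0.711 to 0.355 in shMETTL3 against shControl, 0.464 to 0.945 in shMETTL14 against shControl, 0.382 to 1.448 in shMETTL14 against shMETTL3, -0.576 to 0.489 in shMETTL3 against control and 0.624 to 1.08 in shMETTL14 against control. With each library left out in turn, the log2 fold change of CEBPZ ran from -0.045 to 0.036 in shMETTL3 against control and 0.325 to 0.404 in shMETTL14 against control. With each library left out in turn, the numbers of members called ran from 0 to 1 higher in shControl against control, 0 to 1 lower in shMETTL3 against shControl, 0 to 2 higher in shMETTL14 against shControl, 1 to 2 higher in shMETTL14 against shMETTL3, 0 to 1 higher in shMETTL3 against control, 0 to 1 lower in shMETTL3 against control, 1 to 3 higher in shMETTL14 against control and 0 to 1 lower in shMETTL14 against control. Same-numbered libraries did not deviate together (correlations of -0.039 to 0.101), and the replicate block changed no call of a member: CEBPB in shMETTL14 against shControl was 0.706 (edgeR adjusted p = 0.042). Of 826 counts of list genes under alternatives, 661 stayed within 1.5 times and 165 did not. CEBPD could not be tested where 10 counts were required in every library, and it is the tested member that depth limits most, with 8 to 42 counts a library. With library size alone 752 genes were called higher and 5007 lower in shControl against control (1711 and 1702 as reported), 5285 and 353 in shMETTL3 against shControl (1573 and 1434) and 3163 and 710 in shMETTL14 against shControl (1175 and 1545). Where a library was left out, the lone library of its group was assumed to vary like the other groups. The offsets for length with GC content and the fit without both shMETTL3 libraries were chosen after seeing the data.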
